A study of Mus musculus with 4 samples.

Results

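The genes for the TGF-beta receptors and the Smad proteins they act on were examined in mouse long-term haematopoietic stem cells with and without Sin3B. Their members were taken by name, though with earlier results of these data known: Tgfb1, Tgfbr1, Tgfbr2, Smad2, Smad3, Smad4, Smad7 and Skil. Library values were at hand for 7 of the 8, out of 9244 genes with library values in all, and Tgfb1 was not analysed here. RNA sequencing was done on 2 Sin3B knockout (KO) libraries and 2 wild-type (WT) libraries of polyA RNA, made by a template-switching method for small inputs. Both groups were C57BL/6 mice of 8 to 12 weeks, and differed by label in genotype alone, Sin3B KO against WT. The cells had been sorted from the lineage-negative, Sca-1-positive, Kit-positive (LSK) population as cells without CD34 and Flk2. How Sin3B was deleted, and in which cells, is not given in the labels, nor whether libraries of the same genotype are separate animals. All p-values here thus measure the spread from library to library, which may be technical.

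TGF-beta binds the type II receptor kinase Tgfbr2, which phosphorylates and switches on the type I receptor kinase Tgfbr1. Tgfbr1 then phosphorylates the receptor Smads, Smad2 and Smad3, which join the common partner Smad4 and enter the nucleus to turn target genes on or off, while Smad7 blocks the receptors and Skil (SnoN) holds Smad complexes in a repressed state. In the marrow this pathway is known for holding stem cells out of the cell cycle. Sin3B is a scaffold that gathers histone deacetylases into repressor complexes, and proteins of the Ski and SnoN family are known to recruit Sin3 complexes to Smad-bound genes.

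With the smallest step between the values of a library taken as 1 read, the libraries held between 9950979 and 13700630 reads in the listed genes. No listed gene lies near 1 read, so that a step is 1 read could not be checked. Sin3b itself had 755.4 and 646.5 normalised counts in Sin3B KO cells, against 1522 and 1825 in WT cells, so it was lower in both KO libraries while reads remained, and where in the gene they lay was not analysed here. Its log2 fold change was -1.25 (SE 0.22), with a Benjamini-Hochberg adjusted p of 0.548 by limma, and of 0.0282 with the replicate number as a block. The authors' deposited table gave a log2 fold change of -1.03 and an adjusted p of 0.00249 for Sin3b. All 14 genes of the stem cell and gate list were measured, none at 0 in any library, and summed to 82562 and 93542 in Sin3B KO cells, against 90401 and 84695 in WT cells. Within it, Kit had 20868 and 19845 in Sin3B KO cells, against 22329 and 17785 in WT cells. Of the surface proteins gated out, Cd34 still had 5623 and 5133 in Sin3B KO cells, against 6508 and 4945 in WT cells, and Flt3 (Flk2) had 830.4 and 354.0, against 1169.8 and 371.9. Within the list, Fgd5 and Hlf were lower in Sin3B KO cells without overlap, and Ly6a and Tek were higher without overlap. Over all genes, 19.4% were lower and 24.7% higher without overlap, and the list's median log2 fold change was 0.11. Ly6a had 2699 and 2812 in Sin3B KO cells, against 2343 and 2628 in WT cells. Tek had 1269 and 1419 in Sin3B KO cells, against 1087 and 1080 in WT cells. Fgd5 had 256.6 and 643.0 in Sin3B KO cells, against 710.3 and 1240.3 in WT cells (log2 fold change -1.21, Benjamini-Hochberg adjusted p 0.548 by limma and 0.0435 with the block). Hlf had 5353 and 7054 in Sin3B KO cells, against 8877 and 7805 in WT cells (log2 fold change -0.44). Markers of other cells were present, and in the myeloid, erythroid, B lineage, T and NK, and stromal and endothelial lists their sum was higher in library 1 of each genotype. In all, 15 of 16 myeloid genes summed to 55001 and 24960 in Sin3B KO cells, against 80895 and 15004 in WT cells. The 11 of 15 erythroid genes measured summed to 23988 and 9025 in Sin3B KO cells, against 11147 and 6604 in WT cells, and the 8 of 12 B lineage genes to 5749 and 2881, against 4750 and 2338. Megakaryocyte genes (13 of 15) ranged from 48309 to 55842 in Sin3B KO cells, against 46921 to 49979 in WT cells, and macrophage and dendritic genes (7 of 15) from 9925 to 11035, against 8434 to 10316. Of the T and NK list and of the stromal and endothelial list, 3 of 11 genes each were measured. The T and NK genes summed to 3078 and 1740 in Sin3B KO cells, against 2264 and 1570 in WT cells, and the stromal and endothelial genes to 3417 and 1679, against 2254 and 1698. The genes at 0 in a library were Il7r and Slc4a1, both in WT 2.

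None of the 7 receptor and Smad genes passed an adjusted p under 0.05, and their estimates were mostly small and mostly below 0. Smad4 stood lowest, 1.59-fold lower in Sin3B KO cells, with Smad3, Tgfbr2 and Smad7 at smaller differences and Smad2 the single member with a higher mean in Sin3B KO cells. In limma, 0 of the 7 members passed, as did 0% of all 9244 genes. At an unadjusted p under 0.05, 824 genes (8.91%) were counted in that fit, and 1 of the 7 members, Smad4, was among the lower ones, against 3.95% of all genes lower and 4.97% higher. The fold change was below 0 for 6 of the 7 members, against 46.6% of all genes, and the members' median was -0.33 on the log2 scale, against 0.03 over all genes. Both Sin3B KO values lay below both WT values for 2 of the 7, Tgfbr2 and Smad4, against 19.4% of all genes, and above them for 0 of the 7, against 24.7% of all genes. The counts over 7 genes are descriptions, with no test of the list. As RNA was taken from sorted populations, fewer cells of a type and less RNA per cell cannot be told apart in any of these values.

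**Figure D1:**
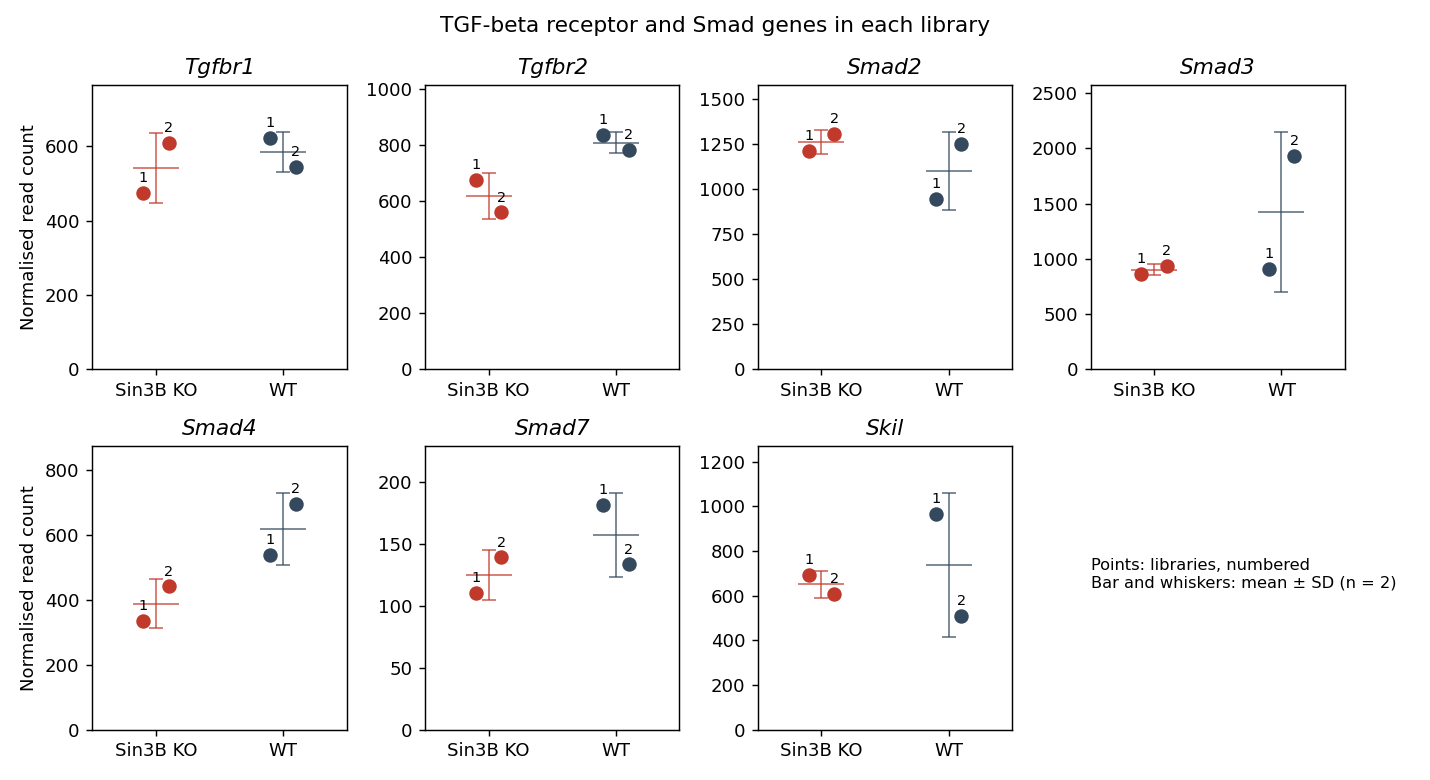
Normalised read count (vertical axis, from 0) of each receptor and Smad gene in the 2 Sin3B KO libraries (left, red) and the 2 WT libraries (right, dark blue), each point 1 library with its number; the bar and whiskers are the mean and SD (n = 2). For Smad4 the Sin3B KO points at 333.5 and 440.5 lie under the WT points at 538.2 and 695.3, while for Smad3 WT 2 stands alone at 1934.

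The receptors are described first. Tgfbr2, the ligand-binding kinase, had 677.6 and 560.0 normalised counts in Sin3B KO cells, against 835.7 and 783.3 in WT cells. Both Sin3B KO values lay below both WT values, and the means were 618.8 ± 83.1 in Sin3B KO cells and 809.5 ± 37.0 in WT cells (SD over 2 libraries, as throughout). The log2 fold change was -0.39 (SE 0.23), and its 95% confidence interval, -0.92 to 0.14, crossed 0. By limma, the unadjusted p was 0.128 and the Benjamini-Hochberg adjusted p was 0.589. The Tgfbr2 estimate was -0.26 without Sin3B KO 2. Tgfbr1, the signalling kinase it activates, had 474.8 and 609.1 in Sin3B KO cells, against 622.5 and 546.0 in WT cells, and the groups overlapped. Its log2 fold change was -0.12 (SE 0.26, interval -0.70 to 0.47, adjusted p 0.883 by limma with Benjamini-Hochberg adjustment), and it was 0.063 without Sin3B KO 1. The intervals therefore allow a Tgfbr1 level between 0.615-fold and 1.38-fold of WT and a Tgfbr2 level between 0.527-fold and 1.10-fold of WT.

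The promoters of 3 measured members are shown, Tgfbr1 and Tgfbr2 because they encode partners of 1 receptor complex and differ in the letters just upstream of their starts, with Smad3 beside them as a receptor Smad. Each is the 250 bases before the RefSeq start in GRCm38.p6, written from 5′ to 3′ on the strand of the gene. Capitals mark matches on either strand to CAGAC, the Smad box core, and to GGGCGG, the GC box bound by Sp1, and no match overlapped one of the other motif. Tgfbr1 lies at chr4:47352972-47353221 on the plus strand, Tgfbr2 at chr9:116175364-116175613 on the minus strand and Smad3 at chr9:63757995-63758244 on the minus strand.
Tgfbr1: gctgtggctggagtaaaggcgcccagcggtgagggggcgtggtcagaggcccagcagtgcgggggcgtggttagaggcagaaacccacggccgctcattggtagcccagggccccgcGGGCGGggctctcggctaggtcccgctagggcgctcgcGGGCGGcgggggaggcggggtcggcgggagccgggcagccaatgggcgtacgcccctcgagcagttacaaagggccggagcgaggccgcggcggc
Tgfbr2: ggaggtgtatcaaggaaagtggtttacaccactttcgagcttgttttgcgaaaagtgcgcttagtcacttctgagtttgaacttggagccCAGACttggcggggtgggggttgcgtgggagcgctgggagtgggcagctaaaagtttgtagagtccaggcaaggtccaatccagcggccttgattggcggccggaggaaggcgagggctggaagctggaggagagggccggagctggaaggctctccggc
Smad3: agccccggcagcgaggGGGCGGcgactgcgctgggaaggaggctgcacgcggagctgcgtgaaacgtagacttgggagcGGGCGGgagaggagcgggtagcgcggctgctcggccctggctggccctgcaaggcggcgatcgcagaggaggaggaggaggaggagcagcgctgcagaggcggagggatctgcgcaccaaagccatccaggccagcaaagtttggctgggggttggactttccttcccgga
The Tgfbr1 promoter had 2 GC boxes, 133 and 95 bases before the start, no Smad box and 74.8% G and C. A further start listed for Tgfbr1 had 1 Smad box and no GC box in its window. The Tgfbr2 promoter had 1 Smad box, 160 bases before the start, no GC box and 58.4% G and C. The Smad3 promoter had 2 GC boxes, 234 and 171 bases before the start, no Smad box and 69.2% G and C. Among 32817 mouse promoter windows of the same length, 42.2% held CAGAC and 32.7% held GGGCGG, so both are common letters, and a match is a description and not a binding site.

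The receptor Smads differed in opposite directions in their means, and both estimates moved with the WT library kept. Smad2 had 1212 and 1306 in Sin3B KO cells, against 946.3 and 1252 in WT cells. The groups overlapped, the means were 1259 ± 66.8 in Sin3B KO cells and 1099 ± 216 in WT cells, and the log2 fold change was 0.21 (SE 0.22, interval -0.30 to 0.72, Benjamini-Hochberg adjusted p 0.738 by limma). That estimate was 0.0071 without WT 1 and 0.41 without WT 2. Smad3 had 865.0 and 936.4 in Sin3B KO cells, against 907.6 and 1934 in WT cells. WT 2 alone stood apart, at 2.13 times WT 1, while the other 3 libraries lay between 865.0 and 936.4. The means were 900.7 ± 50.5 in Sin3B KO cells and 1421 ± 726 in WT cells, with a log2 fold change of -0.56 (SE 0.33, interval -1.32 to 0.20, Benjamini-Hochberg adjusted p 0.589 by limma). Without WT 2 the Smad3 estimate was -0.01, and without WT 1 it was -1.10, so its size rests on which WT library is kept.

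Smad4, the common partner that both receptor Smads need for most of their transcriptional work, had 333.5 and 440.5 in Sin3B KO cells, against 538.2 and 695.3 in WT cells. The groups did not overlap, and Sin3B KO minus WT of the same number was -0.69 for library 1 and -0.66 for library 2 on the log2 scale. The labels do not say what the number marks, and the likeness of the 2 differences depends on that pairing. The means were 387.0 ± 75.7 in Sin3B KO cells and 616.7 ± 111 in WT cells, a log2 fold change of -0.67 (SE 0.28, interval -1.31 to -0.03). The unadjusted limma p was 0.0414 and the Benjamini-Hochberg adjusted p over all genes was 0.548. That was the smallest adjusted p in the fit. It was shared by genes as unlike as Sin3b (unadjusted limma p 0.000351) and Map3k7 (0.0581), so it does not rank Smad4. The estimate ranged from -0.87 to -0.47 over the alternatives tried, all below 0. Its unadjusted p was no longer under 0.05 without Sin3B KO 1, without WT 2 or with genes of a mean of at least 500 alone, where 0 members were counted.

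The inhibitors came last. Smad7, which recruits ubiquitin ligases to the receptors and is itself a target of the pathway, had 110.5 and 139.1 in Sin3B KO cells, against 181.3 and 133.5 in WT cells. The groups overlapped, and with a step taken as 1 read these values stand for 115 and 156 reads in Sin3B KO cells, against 159 and 135 reads in WT cells. The log2 fold change was -0.33 (SE 0.48, Benjamini-Hochberg adjusted p 0.808 by limma), the widest error of the members. The estimate was -0.11 without WT 1 and -0.54 without WT 2. Skil had 693.9 and 607.3 in Sin3B KO cells, against 965.7 and 508.4 in WT cells, so both Sin3B KO values lay between the WT values. Its log2 fold change was -0.11 (SE 0.32, Benjamini-Hochberg adjusted p 0.916 by limma), and it was -0.57 without WT 2 and 0.35 without WT 1. No direction can be read for Skil from these libraries.

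**Figure D2:**
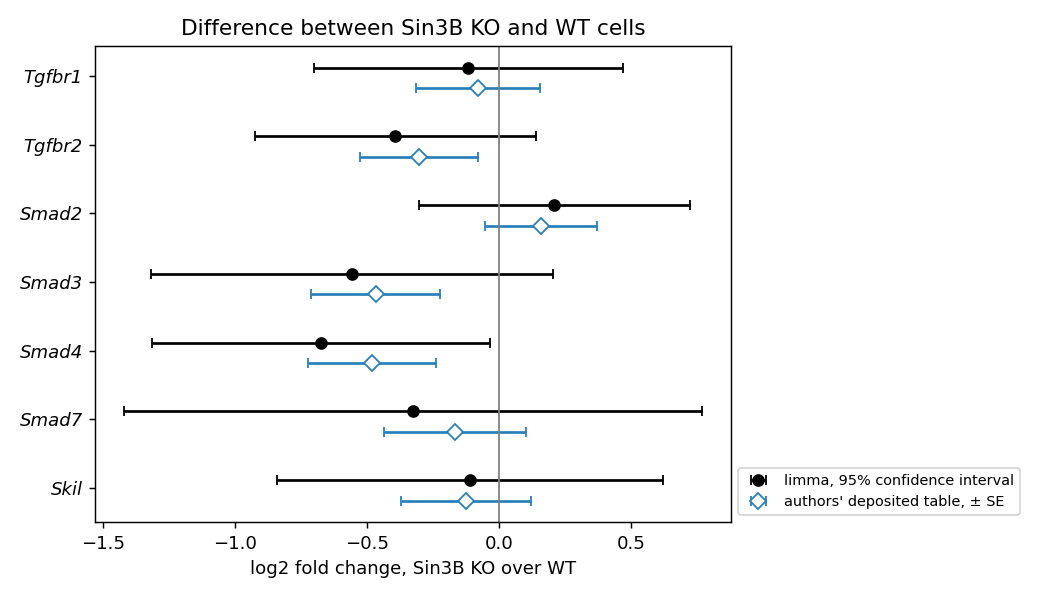
Log2 fold change of Sin3B KO over WT (horizontal axis) for each receptor and Smad gene, as the limma estimate with its 95% confidence interval (black) and as the value of the authors' deposited table with its SE (blue diamonds). Of the limma intervals, that of Smad4, -1.31 to -0.03, is the single one that does not cross 0.

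The authors' deposited table gave its own comparison for the same genes. The authors' deposited table had a log2 fold change of -0.48 for Smad4 with an unadjusted p of 0.0477 and an adjusted p of 0.522, and of -0.47 for Smad3 with an unadjusted p of 0.0553. For the receptors, the authors' deposited table had -0.30 for Tgfbr2 (unadjusted p 0.174) and -0.08 for Tgfbr1 (unadjusted p 0.732). It had 0.16 for Smad2, -0.17 for Smad7 and -0.12 for Skil in the authors' deposited table, so the signs were those of limma for all 7 genes. In the authors' deposited table, 0 of the 7 members passed an adjusted p under 0.05, against 0.316% of its 9796 genes, and 1 of the 7 was lower at an unadjusted p under 0.05, against 4.07% of its genes.

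Levels were set side by side only per length, as normalised counts per kb of merged exons. Smad3 stood highest, with 156.1 and 169.0 per kb in Sin3B KO cells, against 163.8 and 348.9 per kb in WT cells. Smad4 and Smad2 followed with means over the 4 libraries of 135.2 and 134.3 per kb, then Tgfbr2 with 87.2, Tgfbr1 with 86.2, Skil with 71.6 and Smad7 with 31.2. Neighbours in this order overlapped over the 4 libraries at all steps but from Smad2 to Tgfbr2 and from Skil to Smad7. Against all listed genes with a known length, Smad3 lay at the 60.1st percentile per kb, Smad4 at 45.5, Tgfbr2 at 31.7 and Smad7 at 6.88. The receptors and Smads were thus of middling to low level among the listed genes, none of which had a mean under 120.2. Genes that are not listed could not be ranked, so these are not percentiles of all genes of the cells. No exon of another annotated gene overlapped those of the 7 members, and no run of 40 bases was shared over the 21 pairs of their transcripts. Runs shared with other genes were not looked for.

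Ratios between members within a library do not depend on how libraries were scaled. The ratio of Smad4 to Smad2, the common partner over a receptor Smad, was 0.275 and 0.337 in Sin3B KO cells, against 0.569 and 0.555 in WT cells, 1.85-fold lower in Sin3B KO cells. The ratio of Smad3 to Smad2 was 0.714 and 0.717 in Sin3B KO cells, against 0.959 and 1.54 in WT cells. The ratio of the receptors, Tgfbr1 to Tgfbr2, was 0.701 and 1.09 in Sin3B KO cells, against 0.745 and 0.697 in WT cells, and overlapped. Of the 21 pairs of members, 6 (28.6%) had ratios that did not overlap between the groups, 4 of them with Smad2, against 41.5% of all pairs of genes in the table. The share among the members was thus no higher than that of any pair of genes. An exact two-sided permutation test of 2 libraries against 2 cannot give a p below 0.333, so none was run for these ratios.

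**Figure D3:**
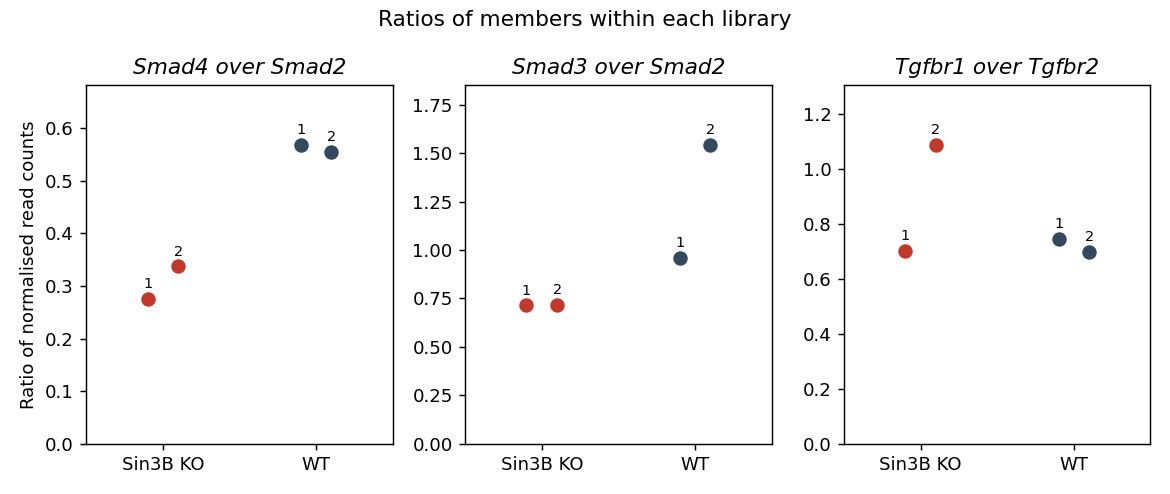
Ratio of normalised read counts of 2 genes within each library (vertical axis, from 0, no unit) for Smad4 over Smad2, Smad3 over Smad2 and Tgfbr1 over Tgfbr2, with Sin3B KO libraries on the left and WT libraries on the right of each panel and each point 1 numbered library. For Smad4 over Smad2 the Sin3B KO points at 0.275 and 0.337 lie below the WT points at 0.569 and 0.555; for Tgfbr1 over Tgfbr2 the groups overlap.

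Smad3 had the widest log2 range over the 4 libraries, 1.16, and 3 genes were named whose pattern over the 4 libraries was nearest to it by root mean square distance of centred log2 values. They were Fosl2, an AP-1 transcription factor (distance 0.0222), Trpc4ap, an adaptor protein (0.0337), and Eif3f, a subunit of a translation initiation factor (0.0380). Fosl2 had 220.1 and 247.9 in Sin3B KO cells, against 239.4 and 506.4 in WT cells, and Eif3f had 509.4 and 563.6 in Sin3B KO cells, against 545.0 and 1223 in WT cells. In each the single high library was WT 2. In all, 27 genes lay within a distance of 0.1 of Smad3, against 84 of Smad4 and 644 of Smad2, over 4 libraries each. These counts were not adjusted for the log2 range, which was 1.16 for Smad3, 1.06 for Smad4 and 0.47 for Smad2. They are thus no measure of how particular a pattern is.

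The other genes of the pathway were read from 7 lists by role, also chosen with earlier results of these data known. The lists hold 155 genes, 89 of them measured. No gene of any list passed an adjusted p under 0.05 in limma. Of the 89, 61 (68.5%) had a fold change below 0, the median was -0.20, and 15 (16.9%) were lower and 3 (3.37%) higher at an unadjusted p under 0.05. Both Sin3B KO values lay below both WT values for 35 (39.3%) and above them for 10 (11.2%). The shares over all genes, given above, were 3.95% lower and 4.97% higher by unadjusted p, and 19.4% lower and 24.7% higher by non-overlap. Each of the 18 genes at an unadjusted p under 0.05 had a Benjamini-Hochberg adjusted p of 0.548 by limma.

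**Figure D4:**
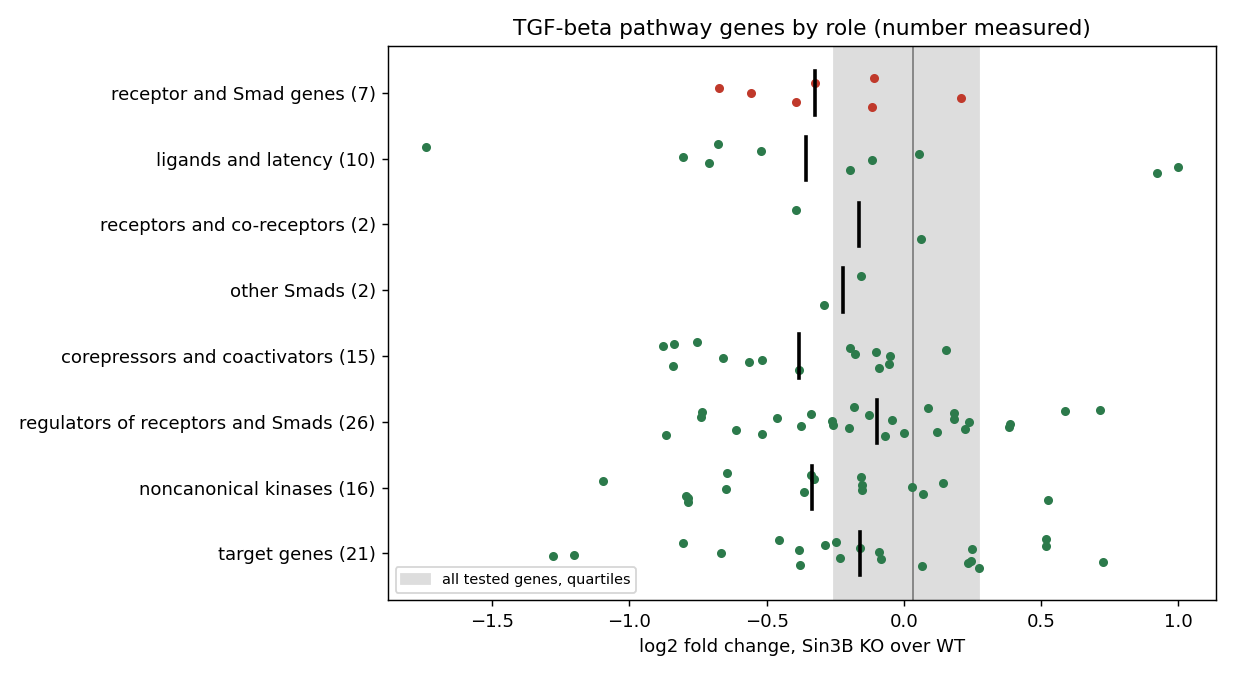
Log2 fold change of Sin3B KO over WT (horizontal axis) of each measured gene of the receptor and Smad group (red) and of the 7 pathway lists (green), 1 point per gene, with the list's median as a black bar and the quartiles of all tested genes as a grey band around their median of 0.03 (grey line). The medians run from -0.38 for corepressors and coactivators to -0.10 for regulators of receptors and Smads.

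Of the ligands and latency proteins, which make and store active TGF-beta family ligands, 10 of 40 were measured, with a median of -0.36 and 7 below 0. Of these 10, 1 was lower and 1 higher at an unadjusted limma p under 0.05, against 3.95% and 4.97% of all genes. Groups did not overlap for 4 lower and 3 higher genes of this list, against 19.4% and 24.7% of all genes. Gdf3, a ligand of the Nodal branch of the family, had 585.3 and 715.2 in Sin3B KO cells, against 315.8 and 331.3 in WT cells. That gene was higher in both Sin3B KO libraries, with a log2 fold change of 0.998 (SE 0.26). Furin, the convertase that cuts the TGF-beta precursor, had 478.6 and 470.0 in Sin3B KO cells, against 711.5 and 811.0 in WT cells, a log2 fold change of -0.68 (SE 0.24). Fstl1, a secreted binder of family ligands, had a log2 fold change of -0.12 with overlapping groups. Of receptors and co-receptors, 2 of 15 were measured. The endothelial and stem cell co-receptor Eng (endoglin) had 2655 and 1806 in Sin3B KO cells, against 3034 and 2725 in WT cells, without overlap, with a log2 fold change of -0.39 (SE 0.23) that was -0.12 without Sin3B KO 2 and -0.67 without Sin3B KO 1. Betaglycan, Tgfbr3, had 1385 and 1651 in Sin3B KO cells, against 1424 and 1469.8 in WT cells, and overlapped, with a log2 fold change of 0.06. The Smads of the BMP branch, Smad1 and Smad5, 2 of 4 listed, had log2 fold changes of -0.29 and -0.15 with overlapping groups.

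Among corepressors and coactivators, the nuclear partners of Smads, 15 of 16 were measured, 14 of them below 0, with a median of -0.38. At an unadjusted limma p under 0.05, 5 were lower and 0 higher, against 3.95% and 4.97% of all genes. Of the 15, 7 were lower and 0 higher without overlap, against 19.4% and 24.7% of all genes. Cited2, a coactivator that binds CBP and Smads, had 415.2 and 435.2 in Sin3B KO cells, against 737.7 and 828.8 in WT cells, a log2 fold change of -0.88 (SE 0.24). Both values in Sin3B KO cells lay well under both in WT cells, with a spread within groups smaller than the gap. The homeodomain corepressor Tgif2 had 204.7 and 189.1 in Sin3B KO cells, against 294.2 and 423.3 in WT cells (log2 fold change -0.84). Runx3, a DNA-binding partner of Smads, had 494.0 and 329.1 in Sin3B KO cells, against 595.2 and 779.4 in WT cells (log2 fold change -0.75, and -0.46 without Sin3B KO 2). The acetyltransferase Crebbp (CBP) had a log2 fold change of -0.52 and the GC box factor Sp1 one of -0.66, which was -0.32 without Sin3B KO 1 and -1.0004 without Sin3B KO 2. Tgif1, the more abundant relative of Tgif2 per kb, had 1486 and 1527 in Sin3B KO cells, against 1736 and 1482 in WT cells, and overlapped.

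Regulators of receptors and Smads, 26 of 30 measured, had a median of -0.10 with 15 below 0. Of these 26, 4 were lower and 1 higher at an unadjusted limma p under 0.05, against 3.95% and 4.97% of all genes. The regulators without overlap were 10 lower and 4 higher, against 19.4% and 24.7% of all genes. Smurf2, the ubiquitin ligase that Smad7 brings to the receptors, had 368.1 and 493.2 in Sin3B KO cells, against 685.2 and 884.2 in WT cells, a log2 fold change of -0.87 (SE 0.27). Rnf111 (Arkadia), the ligase that removes Smad7 and Skil, had 512.3 and 450.3 in Sin3B KO cells, against 844.9 and 638.9 in WT cells, a log2 fold change of -0.61. Strap, an adaptor that holds Smad7 at the receptor, had 366.2 and 430.7 in Sin3B KO cells, against 668.1 and 658.7 in WT cells, a log2 fold change of -0.74. Each of these 3 genes was lower in both Sin3B KO libraries than in both WT libraries, none of them past the adjusted threshold. Ppp2r2a, a regulatory subunit of the PP2A phosphatase, had a log2 fold change of -0.74, which was -0.37 without Sin3B KO 1, and the scaffold subunit Ppp2r1a one of 0.18 with overlapping groups. The importin Ipo7 was at the higher end of the list, with 1460 and 1345 in Sin3B KO cells, against 1179 and 619.2 in WT cells, a log2 fold change of 0.71, which was 0.25 without WT 2 and 1.18 without WT 1. Ppp1r15a differed mainly by library number, with 2001 and 3722 in Sin3B KO cells, against 1641 and 4820 in WT cells.

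Of the kinases and adaptors that carry the Smad-independent signal, 16 of 17 were measured, 12 below 0, with a median of -0.33. At an unadjusted limma p under 0.05, 3 were lower and 1 higher, against 3.95% and 4.97% of all genes. By non-overlap, 8 were lower and 1 higher, against 19.4% and 24.7% of all genes. Tab2, an adaptor of the TAK1 kinase, had 965.0 and 1132 in Sin3B KO cells, against 1478 and 2202 in WT cells, a log2 fold change of -0.79 (SE 0.25), which was -0.50 without WT 2. Its partner Tab1 went the other way in its values, with 1116 and 1298 in Sin3B KO cells, against 766.2 and 909.9 in WT cells, a log2 fold change of 0.53. Map2k4, a kinase upstream of JNK, had 380.6 and 272.9 in Sin3B KO cells, against 481.1 and 991.1 in WT cells, a log2 fold change of -1.10, which was -0.58 without WT 2. Mapk14 (p38) and its activator Map2k3, the most abundant of the list per kb, had -0.15 and 0.14 with overlapping groups.

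Target genes of the pathway, 21 of 38 measured, had a median of -0.16 with 13 below 0. Of these 21, 2 were lower and 0 higher at an unadjusted limma p under 0.05, against 3.95% and 4.97% of all genes. Among the targets, 6 were lower and 2 higher without overlap, against 19.4% and 24.7% of all genes. Junb, an early Smad target, had 158.6 and 120.4 in Sin3B KO cells, against 376.2 and 301.7 in WT cells, a log2 fold change of -1.28 (SE 0.38). Both Sin3B KO values lay under both WT values. Ndrg1 had 883.3 and 1107 in Sin3B KO cells, against 1328 and 1851 in WT cells, a log2 fold change of -0.66, which was -0.43 without WT 2. The most abundant targets per kb, Myc and Klf10, gave small estimates. Myc, which TGF-beta represses in many cells, had 11019 and 9302 in Sin3B KO cells, against 8124 and 8927 in WT cells. It was higher without overlap (log2 fold change 0.25). Klf10, a TGF-beta-induced factor, had 6949 and 8647 in Sin3B KO cells, against 7038 and 6079.9 in WT cells, and overlapped (log2 fold change 0.24). Targets known to be induced and targets known to be repressed stand in the list together, and some genes are in more than 1 list. No gene of the list passed the adjusted threshold.

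Fold changes in this table also moved with exon length, and that is given beside the members because all but Smad4 and Smad7 are longer than the median gene of 4664 bases. Over 9000 genes with an annotated length (97.4% of those tested), the Spearman correlation of log2 fold change with exon length was -0.235 across genes, and genes do not count as replicates. The median was -0.18 in the longest decile of genes, against 0.15 in the shortest. Tgfbr2, Smad2 and Skil lay in length decile 9, with 8.187, 8.781 and 9.694 kb, where the median was -0.08. Smad4, of 3.712 kb, lay in decile 4, where the median was 0.10. With the length trend removed, an alternative added after seeing the data, Smad4 had -0.76 (unadjusted limma p 0.0226, Benjamini-Hochberg adjusted p 0.553), Tgfbr2 -0.34, Smad3 -0.56, Smad7 -0.37, Tgfbr1 -0.10, Skil -0.01 and Smad2 0.28. The members' median was then -0.34 and that of the pathway lists together -0.17.

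**Figure D5:**
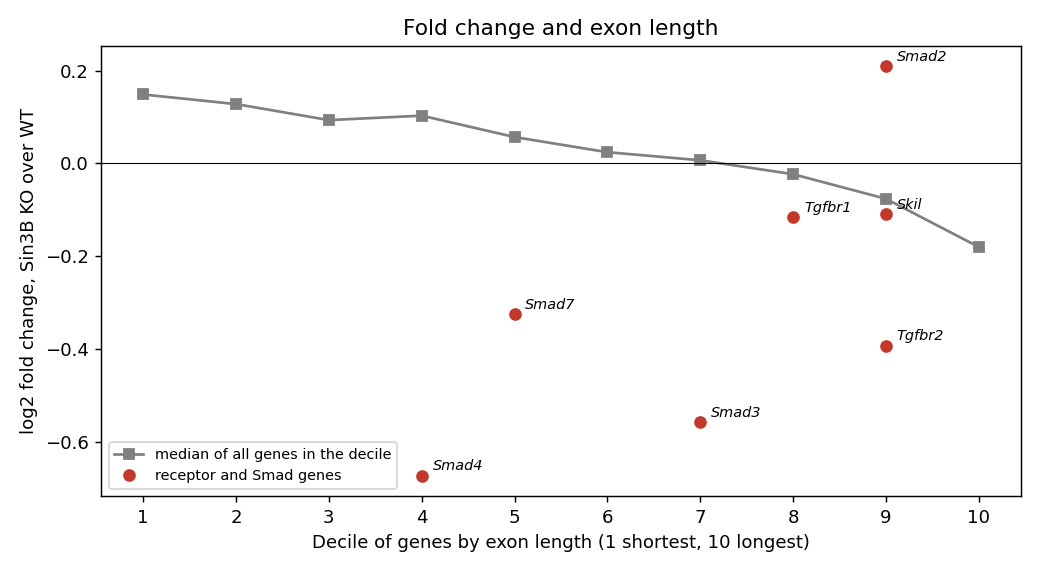
Log2 fold change of Sin3B KO over WT (vertical axis) by decile of exon length (horizontal axis, 1 shortest to 10 longest), with the median of all genes of each decile (grey squares) and the 7 receptor and Smad genes (red). The grey line goes down to -0.18 in the longest decile, against 0.15 in the shortest, and Smad4 lies under it at -0.67 in decile 4.

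Because markers of other cells differed by library number, the members were read by number too. The mean of libraries 1 minus that of libraries 2 was 0.56 on the log2 scale for Skil, -0.60 for Smad3, -0.38 for Smad4, -0.26 for Smad2, 0.18 for Tgfbr2, -0.08 for Tgfbr1 and 0.05 for Smad7, against 2.31 for the median of the myeloid markers. The part of those markers in the differences of Smad3 and Skil was not tested. Within the same number, Smad3 differed by -0.07 between Sin3B KO 1 and WT 1 and by -1.05 between Sin3B KO 2 and WT 2, and Skil by -0.48 and 0.26. With the replicate number as a block, 0 of the 7 members passed the adjusted threshold in limma, against 0.292% of all genes.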

How the data were processed

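Polyadenylated RNA of sorted long-term haematopoietic stem cells was sequenced, with 2 Sin3B KO and 2 WT libraries. Bowtie, DESeq and the build mm9 are named in the submitters' processing notes. The sources used here name no counter or annotation. The authors deposited a signal per gene and library. In each library all values were whole multiples of a step, within 0.01 of a step. The values were therefore taken as read counts divided by that library's size factor, which could not be checked. Per the file headers, the authors also deposited a log2 fold change, its SE, a test score and a p-value with its adjusted form. The 9796 rows hold 552 without library values, which were not tested, and no gene with a mean under 120.2.

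From these, limma 3.58.1 in R 4.3.3 was run on log2(value + 1) with a trended prior (6.62 prior and 2 residual degrees of freedom) over 9244 genes (minimum 1 in 2 or more libraries), with Benjamini-Hochberg adjustment over all of them at 0.05. The median half-width of a 95% interval was 0.60 on the log2 scale. Fold changes on the log2(value + 1) scale understate the change of low genes. The members and all gene lists were chosen with earlier results of these data known. Pathway genes are named by a rule: the 2 most abundant per kb of each list, and every gene with an unadjusted p under 0.05. A result that the rule takes is not reported here. Exon lengths come from a GRCm38 annotation, matched by Ensembl gene identifier. Promoters come from RefSeq, matched by symbol, and were used for 4 of the 8 listed genes. The fit was tested on simulated data, drawn independently for each library. Those data lacked the deviation that same-numbered libraries share, so they do not show how the fit performs on these libraries. Alternatives were other scalings, pseudocounts and filters, a prior without trend, a replicate block, each library left out, and the length trend removed.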

Additional observations from a re-analysis of the deposited data

How the results depend on the processing

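None of the 7 members passed the adjusted threshold under any of the 14 alternatives, and of 97 member values 95 kept their direction. Direction changed, with the library left out deciding it, for Tgfbr1 (-0.30 to 0.063 over the 4 omissions) and Skil (-0.57 to 0.35), and outside the members for Sin3a (-0.22 to 0.12), Fstl1 (-0.44 to 0.21), Smad5 (-0.56 to 0.25), Tgif1 (-0.21 to 0.024), Ppp1r15a (-0.82 to 0.73) and Tgfbr3 (-0.063 to 0.19), the last also with equal sums over the listed genes (-0.021) and upper quartile scaling (-0.050). Upper quartile scaling shifted the median of all genes by -0.11, and the members' median stayed 0.36 below it, at -0.44; with equal sums it was -0.41 and with a mean of at least 500 it was -0.25. Without 1 library it ranged from -0.44 to -0.11, the nearest to 0 without WT 1. The members not overlapping and lower were 4 instead of 2 with equal sums or upper quartile scaling. Equal sums moved the median of all genes by -0.085 and upper quartile scaling by -0.11. The share of all genes not overlapping and lower was not counted under these 2 scalings, and the 19.4% given above is for the main scaling.

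List medians moved as follows. Trimmed mean (TMM) scaling gave -0.42 for corepressors and coactivators, -0.14 for regulators, -0.37 for kinases and -0.24 for the pathway lists together. Equal sums gave -0.25 for receptors and co-receptors, -0.47, -0.18, -0.42 and -0.25 for corepressors, regulators, kinases and targets, and -0.28 together. Upper quartile scaling gave -0.28, -0.50, -0.21, -0.45, -0.27 and -0.31 in that order. A mean of at least 500 gave -0.12 for ligands, -0.29 for corepressors, -0.15 for kinases and -0.15 together. With the length trend removed, corepressors had -0.34 and targets -0.093. With 1 library left out, medians ranged from -0.69 to -0.12 for ligands, -0.47 to -0.24 for corepressors, -0.23 to -0.090 for regulators, -0.47 to -0.21 for kinases, -0.24 to -0.085 for targets and -0.27 to -0.21 together; receptors and co-receptors ranged from -0.24 to -0.089, and the other Smads (median -0.22) from -0.52 to 0.073, above 0 without Sin3B KO 1. The cause was not tested.

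Leaving out a library gave 0 to 1 genes passing over all genes, 6 to 20 pathway genes lower at an unadjusted p under 0.05 (fewest without Sin3B KO 1) and 0 to 7 higher (most without WT 1), while all genes at that p numbered 305 without Sin3B KO 1 and 1487 without WT 1, against 824 with all libraries. TMM, equal sums and upper quartile scaling each left 1 pathway gene higher. With the replicate block, 27 of 9244 genes passed, Sin3b among them with an adjusted p of 0.0282, and 23 pathway genes were lower and 5 higher at an unadjusted p under 0.05, as were 1575 of all genes in either direction. Same-numbered libraries deviated together (correlation 0.465 over 9244 genes), but the labels do not say what the number marks. Under the block Smad4 had an unadjusted limma p of 0.0145 and Smad3 one of 0.0326, with adjusted p of 0.207 and 0.256. Count models (edgeR and DESeq2) were planned and not run, as the deposited values are not raw counts and reads recovered from their steps could not be checked. With 2 libraries a group, the unadjusted 95% interval of the median gene reached 0.60 to each side on the log2 scale. At the adjusted threshold 0 genes passed in the main fit, not even Sin3b at -1.25, so differences above 0.60 could also go unresolved. Smad7, the member of lowest level, had the widest error.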
